A study of Mus musculus with 45 samples.

Results

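Lung epithelial transcripts were followed as 10 genes chosen by name, of 55367 gene symbols in the count table: the type 2 alveolar (AT2) genes Sftpc, Sftpb, Sftpa1, Sftpd, Lamp3 and Abca3, the type 1 alveolar (AT1) genes Ager and Hopx, the club cell gene Scgb1a1 and the ciliated cell gene Foxj1. The rule that names them uses no measured value, but they were chosen with earlier results of these data known. All 10 passed the filter on low counts in the lung. The libraries came from female BALB/c mice that carried subcutaneous polycaprolactone scaffolds, porous implants placed at 7 to 8 weeks of age and 2 weeks before inoculation. Mice received 2000000 67NR, 4T07 or 4T1 mammary carcinoma cells in the fourth right mammary fat pad, or no tumor cells as healthy controls that carried scaffolds too, and tissues were collected on day 14. In this series of lines from a shared mouse mammary tumor, 67NR forms primary tumors only, 4T07 disseminates without forming visible nodules and 4T1 forms macrometastases. There were 3 libraries for each of control, 67NR, 4T07 and 4T1 in lung, scaffold and spleen and 3 tumor libraries per line, 45 in all, and the labels tie no tissues to a mouse, so p-values measure the spread between these samples. Replicates are named by the library numbers of the labels.

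The distal lung is lined by flat AT1 cells that form the gas exchange surface and by AT2 cells that make surfactant, the lipid and protein film that keeps alveoli open. The conducting airways are lined by secretory club cells and by ciliated cells that move mucus. Some of these epithelial genes, such as Sftpc and Scgb1a1, are among the most abundant and most specific transcripts of whole lung. Such genes can also show how much of a bulk lung sample is lung tissue. They can show, too, whether lung RNA is present in a sample of another organ. Abca3 and Foxj1 were far less abundant, and Abca3 and Hopx had levels of their own in other organs, as given below.

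The promoters of 6 of the 10 genes were in the RefSeq promoter table (build GRCm38.p6), and 2 are shown because their genes moved furthest apart among the surfactant protein genes in the lungs below: Sftpb fell least and Sftpa1 fell most in the libraries labelled 4T07 lung. Each is the 250 bases before the annotated start, 5′ to 3′ on the plus strand. Capitals mark matches on either strand to CTCAAG, the core bound by the lung lineage factor NKX2-1, and to the forkhead motifs TGTTTAC and TGTTTGC, none of which overlapped another.
Sftpb, chr6:72304360-72304609: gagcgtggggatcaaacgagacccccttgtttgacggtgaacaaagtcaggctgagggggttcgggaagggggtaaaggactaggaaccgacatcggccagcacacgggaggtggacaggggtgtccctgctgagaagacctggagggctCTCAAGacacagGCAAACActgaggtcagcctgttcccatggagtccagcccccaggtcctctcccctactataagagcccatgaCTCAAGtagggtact
Sftpa1, chr14:41131538-41131787: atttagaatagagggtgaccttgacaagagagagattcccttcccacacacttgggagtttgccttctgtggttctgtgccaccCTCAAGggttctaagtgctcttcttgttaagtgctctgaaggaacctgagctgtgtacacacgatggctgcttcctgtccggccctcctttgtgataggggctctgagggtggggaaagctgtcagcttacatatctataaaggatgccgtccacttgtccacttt
The Sftpb window held 2 CTCAAG matches, which began 100 and 15 bases before the start, and 1 reverse match to TGTTTGC at 88 bases, while the Sftpa1 window held 1 CTCAAG match at 166 bases. CTCAAG was present in 13.3% of all 32851 promoter windows of this length, TGTTTAC in 3.17% and TGTTTGC in 4.30%. A match is a description of the letters and not evidence of binding.

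Values are CPM, a gene's count divided by the library's total and multiplied by 1000000. The kit reads 1 tag per transcript near its 3′ end, so CPM was compared between genes without dividing by length. Libraries held 3491888 to 8175380 counts, and lung libraries 4609634 to 7081417. A floor of 3 counts corresponds to less than 1 CPM in every library. Abca3 overlaps Abca17 and Hopx overlaps the antisense gene Hopxos in the RefSeq annotation. The strand setting of the counting is not given in the sources used here, so reads of Hopx and Hopxos could not be told apart. Hopxos itself held 2.48 to 14.2 CPM in the lungs.

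The 3 libraries labelled 4T07 lung stood apart from the other lungs before any test. A list of 6 genes expressed in spleen was chosen after the values were seen: Tlx1, Nkx2-3, Spic, Cd5l, Madcam1 and Siglec1. Their summed level in these libraries was 138 to 211 CPM, against 6.15 to 15.6 CPM in the other 9 lungs. In the 4T07 spleens the sum was 188 to 213 CPM. Cd5l alone ran from 85.3 to 128 CPM in the 4T07 lungs. Siglec1 was not limited to spleen: it reached 46.0 CPM in 67NR tumors and 27.6 CPM in control spleens. Tlx1, a transcription factor required to form the spleen, measured 11.1 to 14.6 CPM in the 4T07 lungs, 11.9 to 16.7 CPM in the 4T07 spleens and 0.324 to 0.541 CPM in control lungs. Nkx2-3, a further factor of splenic stroma, measured 8.03 to 13.2 CPM in the 4T07 lungs, 17.5 to 23.5 CPM in the 4T07 spleens and at most 0.523 CPM in control lungs. Tlx1 also reached 4.65 CPM in 4T07 scaffolds and 4.42 CPM in 4T07 tumors, against at most 1.11 CPM in 67NR scaffolds. Control spleens held more Tlx1 than 4T07 spleens, 33.0 to 39.0 CPM. All 6 spleen genes were detected in each of the 3 libraries labelled 4T07 lung. The factors of lung mesenchyme Tbx4, Tbx5, Foxf1 and Tbx2, also listed after the values were seen, summed to 73.9 to 161 CPM there and to 323 to 496 CPM in the other 9 lungs. The part of these markers in the results was not tested. All comparisons with the 4T07 lungs rest on these 3 libraries and have no value without them, and every other lung comparison is given with and without them.

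**Figure D1:**
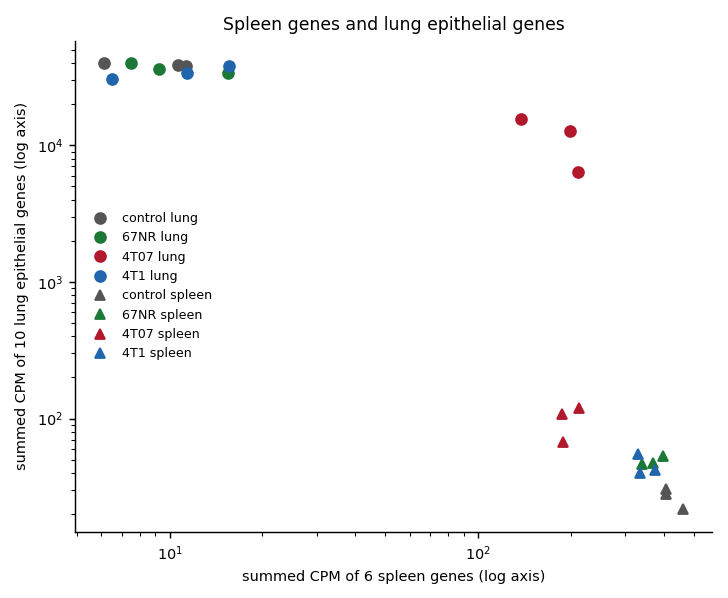
Each point is a lung (circle) or spleen (triangle) library, with the summed CPM of 6 spleen genes on the horizontal log axis and of the 10 lung epithelial genes on the vertical log axis, colored by group. The 3 libraries labelled 4T07 lung lie at 138 to 211 CPM of spleen genes, beside or below the 4T07 spleens at 188 to 213 CPM, with fewer epithelial counts than the other 9 lungs.

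The 10 genes together made up 3.07% to 4.00% of all counts in the control, 67NR and 4T1 lungs and 0.64% to 1.57% in the 4T07 lungs. Scgb1a1 and Sftpc were the most abundant members, followed by Sftpa1, while Abca3 and Foxj1 were the least. In control lungs Scgb1a1 averaged 13926 ± 2436 CPM (SD, n = 3) and Sftpc 12378 ± 808 CPM (SD, n = 3), and these 2 ranges overlapped. Sftpa1 averaged 7713 ± 797 CPM (SD, n = 3), below both without overlap. Foxj1 averaged 5.40 ± 1.73 CPM (SD, n = 3) from 21 to 44 counts per library, and was the member measured with the fewest counts.

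**Figure D2:**
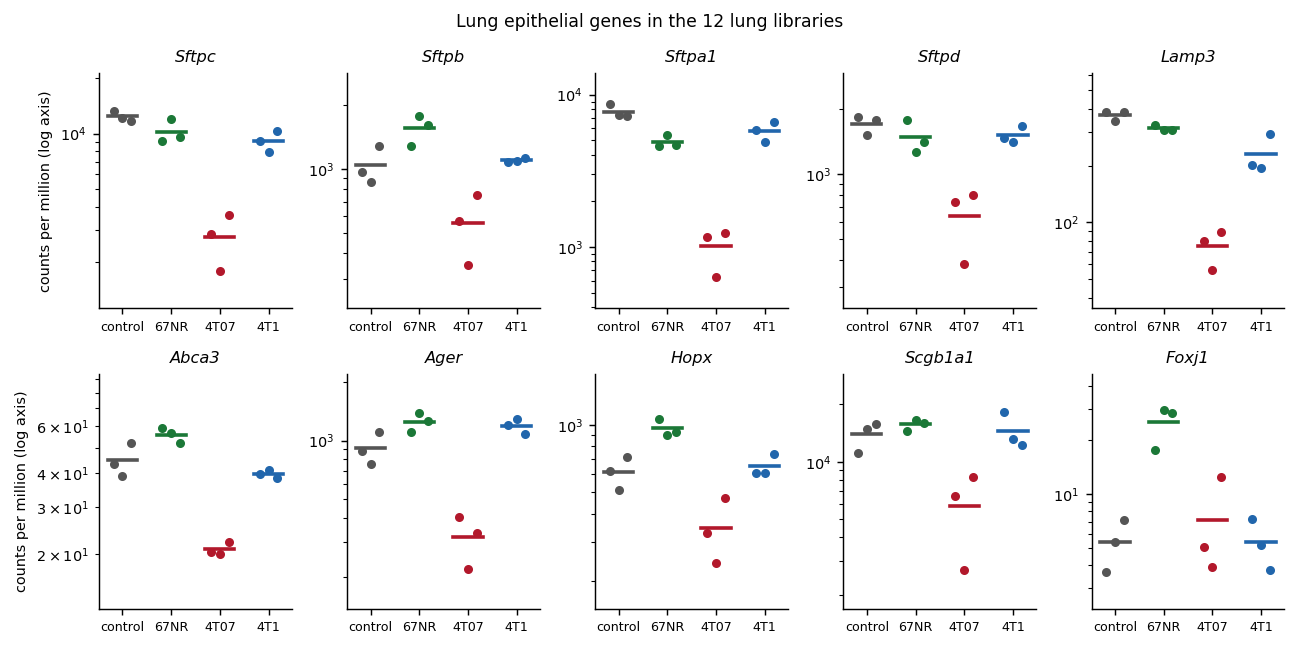
CPM of each gene in the 12 lung libraries on a log axis, 1 panel per gene with its own range, points for libraries and bars for group means (n = 3). The 4T07 lungs lie below the other groups for 9 genes, and for Foxj1 the 67NR lungs lie above the other 3 groups.

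In the 4T07 lungs, 9 of the 10 genes were lower than in control lungs, and for each of those 9 the groups did not overlap, as in 27.2% of all genes, whose 4T07 lungs were all below all control lungs. The AT2 genes carried both the largest and some of the smallest falls. All 9 passed edgeR's quasi-likelihood test at an adjusted p under 0.10, and 7 of them also fell by more than 2-fold. Over all 21937 genes tested, 25.0% were called lower in this comparison and 13.7% were called lower with a fold change over 2. The median log2 fold change was -1.27 over the 10 genes and -0.01 over all genes. In a bulk sample, fewer cells of a type and less RNA per cell cannot be told apart.

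Sftpc, the surfactant protein C precursor made only by AT2 cells in adult lung, measured 13286, 12106 and 11741 CPM in control lungs. It measured 2855, 1798 and 3620 CPM in the 4T07 lungs. The log2 fold change was -2.11 ± 0.22 (SE, edgeR adjusted p = 1.2e-07).

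Sftpa1, a collectin of surfactant that binds microbes, fell most: from 8629, 7321 and 7188 CPM in control lungs to 1155, 629 and 1234 CPM in the 4T07 lungs. Its log2 fold change was -2.88 ± 0.22 (SE, edgeR adjusted p = 2.2e-09). Lamp3, a membrane protein of the lamellar bodies in which AT2 cells store surfactant, went from 343 to 385 CPM down to 56.2 to 89.2 CPM, a log2 fold change of -2.24 ± 0.18 (SE, edgeR adjusted p = 4.8e-09). These 3 AT2 genes had the largest falls of the 10 genes.

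Sftpb, whose product is needed to spread the surfactant film, fell less. It measured 960, 865 and 1285 CPM in control lungs and 564, 350 and 752 CPM in the 4T07 lungs, a log2 fold change of -0.84 ± 0.21 (SE, edgeR adjusted p = 0.0030). Sftpd, the other collectin in the list, fell by 1.36 ± 0.21 on the log2 scale, and Abca3, the lipid transporter of lamellar bodies, by 1.04 ± 0.15. The AT2 genes thus did not fall in step: the 6 log2 fold changes ran from -2.88 to -0.84.

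The AT1 genes fell as well. Ager, the receptor for advanced glycation end products and very abundant in AT1 cells, measured 885, 760 and 1108 CPM in control lungs and 405, 218 and 336 CPM in the 4T07 lungs, a log2 fold change of -1.46 ± 0.19 (SE, edgeR adjusted p = 3.2e-06). Hopx, a homeodomain protein of AT1 cells that does not bind DNA, fell by 0.77 ± 0.19 on the log2 scale (edgeR adjusted p = 0.0025). Scgb1a1, the secretoglobin that club cells release, fell by 1.18 ± 0.27 on the log2 scale (edgeR adjusted p = 0.0015), from 11150, 14922 and 15706 CPM to 6593, 2698 and 8344 CPM. Foxj1, the master transcription factor of motile cilia, measured 3.66, 5.41 and 7.12 CPM in control lungs and 5.08, 3.92 and 12.4 CPM in the 4T07 lungs, and did not pass the test (log2 fold change 0.45 ± 0.37, edgeR adjusted p = 0.35).

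Within the 3 libraries labelled 4T07 lung, replicate 26 had the lowest value of all 10 genes and the highest summed spleen genes, 211 CPM, while replicate 27 had the highest value of 9 of the 10 genes and the lowest summed spleen genes, 138 CPM. The exception was Ager, which was highest in replicate 25. Scgb1a1 ran from 2698 to 8344 CPM within the group and Foxj1 from 3.92 to 12.4 CPM, while Abca3 ran from 20.0 to 22.1 CPM.

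Other markers of the same cell types fell too, from lists that hold no member and were chosen with earlier results of these data known. Of 16 other AT2 genes, 14 were called lower and 1 higher, with a median log2 fold change of -1.53. Their most abundant genes were Cxcl15, a lung chemokine (-2.21), and Lyz1, a lysozyme (-2.91). Of 14 other AT1 genes, 12 were called lower (median -1.18), led in level by Emp2 (-2.01) and Cldn18, a tight junction protein (-1.94). Of 10 other secretory genes, 7 were called lower (median -1.35). The most abundant of them, Cbr2, a carbonyl reductase, was at -0.78, and Cyp2f2, a cytochrome P450 of club cells, did not pass the test (-0.52, edgeR adjusted p = 0.11), while the secretoglobins Scgb3a1 (-2.79) and Scgb3a2 (-2.61) fell further than the median. Of 11 other ciliated genes, 6 were called lower (median -0.98), with Sec14l3 at -1.57 and Tppp3 at -1.96. Of 12 general epithelial genes, 11 were called lower (median -1.80), and the most abundant were Cdh1, the epithelial cadherin (-1.29), and Foxa2, a forkhead factor (-1.34). The fall was not limited to epithelium, as 11 of 12 endothelial and 9 of 10 fibroblast genes were also called lower, with medians of -1.39 and -1.14. In the same libraries 13 of 13 neutrophil, 6 of 6 B cell, 7 of 7 erythroid and 7 of 7 proliferation genes were called higher, where 25.2% of all genes were. The part of those cells in the epithelial result was not tested.

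Against 67NR lungs, all 10 genes were lower in the 4T07 lungs without overlap, where 32.1% of all genes were. All 10 passed the test, where 25.8% of all genes were called lower. All 10 fell by more than 2-fold, where 15.3% of all genes were called lower with a fold change over 2. The log2 fold changes ran from -1.04 for Sftpd to -2.11 for Sftpa1, a narrower spread than against control lungs. Foxj1 was part of this fall (-1.66 ± 0.33, SE, edgeR adjusted p = 0.00034). The 4T1 lungs exceeded the 4T07 lungs in 9 of the 10 genes, where 22.8% of all genes were called higher, and 6 of these differed by more than 2-fold, where 11.6% were. Sftpa1 (2.48 ± 0.22), Ager (1.85 ± 0.19) and Sftpc (1.68 ± 0.21) led, while Foxj1 did not pass the test (-0.44 ± 0.37). The 3 comparisons share the 4T07 libraries.

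As endothelial and fibroblast genes were lower in the 4T07 lungs too, the members were set beside the other genes of the lung. These were 532 genes with at least 5 CPM in control lungs and a mean more than 20 times that in control spleens, members left out. The rule used the control lungs, 1 of the groups compared, so values against control lungs are not independent of it. In 4T07 against 67NR lungs, which the rule did not use, their median log2 fold change was -1.64. In 4T07 against control lungs their median was -1.63, their 5th to 95th percentiles ran from -2.83 to -0.52, and 99.6% were below 0. Ager at -1.46 was within the 25th to 75th percentiles, -2.05 to -1.20. Sftpc at -2.11 was just below these, with 22.2% of the lung genes lower than it. Of the 10 members, 8 were within the 5th to 95th percentiles. Sftpa1 was below the range, with 4.89% of the lung genes lower than it, and Foxj1 was above all 532.

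**Figure D3:**
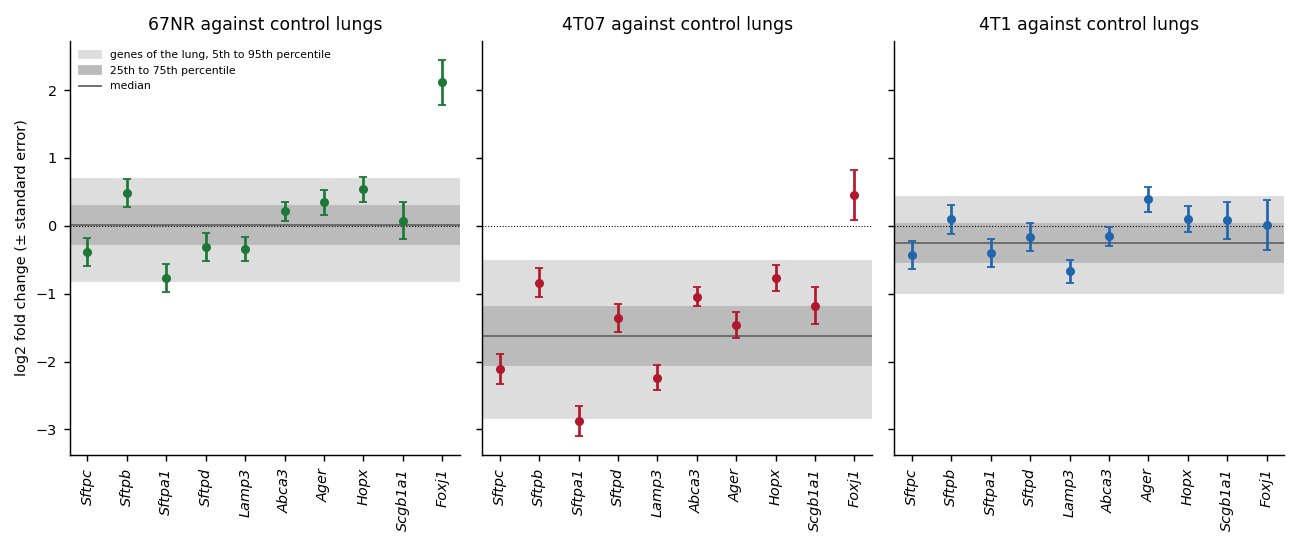
Log2 fold changes of the 10 genes (points, ± SE, edgeR, n = 3 per group) in 67NR, 4T07 and 4T1 lungs against control lungs. Grey bands show the 5th to 95th and 25th to 75th percentiles and the line the median of 532 other genes of the lung, which is at -1.63 for 4T07, 0.02 for 67NR and -0.26 for 4T1.

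When the libraries were scaled to those 532 genes in place of all genes, the 4T07 against control comparison split the members. Sftpa1 (-1.18 ± 0.22, edgeR adjusted p = 3.5e-05), Lamp3 (-0.51, adjusted p = 0.043) and Sftpc (-0.42, adjusted p = 0.078) remained lower. Sftpb (0.85, adjusted p = 0.0014), Abca3 (0.74, adjusted p = 0.010), Hopx (0.93, adjusted p = 4.3e-04), Scgb1a1 (0.46, adjusted p = 0.082) and Foxj1 (2.10, adjusted p = 8.3e-06) were higher. Sftpd (0.33) and Ager (0.28) did not pass the test. Relative to these 532 genes, then, 3 AT2 genes were lower and another 2 higher, and the direction of 6 members depended on the scale. Of the 2 higher AT2 genes, Abca3 averaged 44.8 CPM in control lungs and 11.3 CPM in control spleens. It would thus not meet the 20-fold rule used to choose the 532 genes. In the 4T07 groups Abca3 averaged 20.8 CPM in lungs and 14.9 CPM in spleens. Against 67NR lungs on this scale 3 members passed: Sftpa1 at -0.41 (adjusted p = 0.092), Sftpd at 0.64 (adjusted p = 0.013) and Abca3 at 0.52 (adjusted p = 0.066). Without control lung replicate 4, 5 rather than 8 members passed on this scale against control lungs, and against 67NR lungs none did without 67NR replicate 14 and 1 did without 4T07 replicate 25. This scaling moved the median of all genes by 1.74 on the log2 scale in 4T07 against control. The shares of all genes called on this scale are not given here.

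Ratios of 2 members within a library do not depend on any scaling, and a fall by the same factor in all members would leave them unchanged. Of 6 ratios, 5 differed among the 4 lung groups (exact two-sided permutation test of the F statistic over all 15400 divisions of 12 lungs, adjusted over the 6 ratios). Several of the ratios share a gene, most often Sftpb, so they are not independent results. The share of other gene pairs that differ in this way is not given here, so the count stands without it. Sftpc/Sftpb was 9.13 to 14.0 in control lungs, 5.93 to 7.11 in 67NR lungs, 4.81 to 5.13 in the 4T07 lungs and 7.26 to 9.16 in 4T1 lungs (exact p = 0.00013, adjusted p = 0.00039). The control range overlapped the 4T1 range only at its edge, and the other groups did not overlap.

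Lamp3/Sftpb was likewise highest in control lungs, 0.299 to 0.401, and lowest in the 4T07 lungs, 0.119 to 0.160 (exact p = 0.0017, adjusted p = 0.0034). Between these lay 67NR lungs, 0.175 to 0.254, and 4T1 lungs, 0.177 to 0.264, which overlapped each other. Both ratios were thus lower in all 3 tumor-bearing groups than in controls, with 1 overlap at the edge, and not in the 4T07 lungs alone.

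Ager/Sftpb, an AT1 gene over an AT2 gene, ordered the groups otherwise: 0.966 to 1.18 in 4T1 lungs, 0.862 to 0.922 in control lungs, 0.782 to 0.860 in 67NR lungs and 0.447 to 0.718 in the 4T07 lungs, with no overlap between any 2 groups (exact p = 6.49e-05, the smallest these permutations can give, adjusted p = 0.00039). Hopx/Ager, of the 2 AT1 genes, was 0.811 to 1.40 in the 4T07 lungs and 0.647 to 0.701 in control lungs (exact p = 0.020, adjusted p = 0.024), and 67NR (0.654 to 0.956) overlapped both. The 4T1 lungs were lowest by mean, at 0.474 to 0.683, and overlapped control and 67NR lungs. Foxj1/Scgb1a1 was 0.00121 to 0.00177 in 67NR and 0.000771 to 0.00148 in the 4T07 lungs, and 0.000328 to 0.000453 in control and 0.000307 to 0.000398 in 4T1 lungs (exact p = 0.0031, adjusted p = 0.0047). Scgb1a1/Sftpb did not pass the test (exact p = 0.21): it was 11.6 to 17.2 in control, 9.40 to 11.3 in 67NR, 7.71 to 11.7 in 4T07 and 10.9 to 16.9 in 4T1 lungs.

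Without the 3 libraries labelled 4T07 lung, Sftpc/Sftpb and Ager/Sftpb still differed among the remaining 9 lungs (adjusted p = 0.021 for each, exact permutation over 280 divisions). Lamp3/Sftpb and Foxj1/Scgb1a1 then had adjusted p = 0.054, and Hopx/Ager adjusted p = 0.12.

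**Figure D4:**
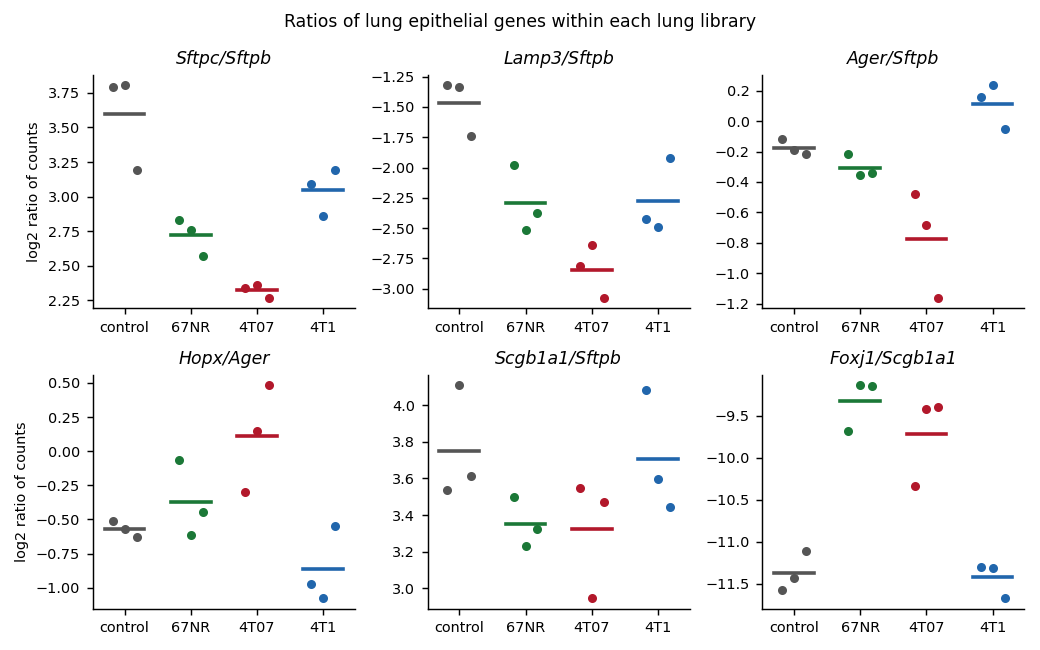
Log2 ratios of 6 pairs of genes in the 12 lung libraries, points for libraries and bars for group means (n = 3). Sftpc/Sftpb and Lamp3/Sftpb are highest in control lungs, Ager/Sftpb is lowest in the 4T07 lungs, and Foxj1/Scgb1a1 separates 67NR and 4T07 lungs from control and 4T1 lungs.

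In 67NR lungs, 3 of the 10 genes differed from control lungs, where 12.8% of all genes were called, and 1 of them by more than 2-fold, where 4.25% were. Foxj1 rose from 3.66, 5.41 and 7.12 CPM to 17.6, 29.4 and 28.4 CPM, with no overlap. The log2 fold change was 2.12 ± 0.33 (SE, edgeR adjusted p = 0.0013), above all 532 other genes of the lung. Sftpa1 fell by 0.77 ± 0.21 on the log2 scale (edgeR adjusted p = 0.027), from 8629, 7321 and 7188 CPM to 4570, 5397 and 4662 CPM. Hopx rose by 0.54 ± 0.19 (edgeR adjusted p = 0.086), from 512 to 716 CPM up to 904 to 1057 CPM. Sftpb and Lamp3 did not overlap between these groups either (log2 fold changes 0.48 and -0.34) but did not pass the test. Of all genes, 19.3% were higher in every 67NR lung than in every control lung and 9.27% lower. Foxj1 passed without any 1 library. Hopx no longer passed without replicate 13, 14 or 15 of the 67NR lungs or replicate 4 or 5 of the controls (adjusted p = 0.11 to 0.31), nor did Sftpa1 without 67NR replicate 15 (adjusted p = 0.10) or control replicate 4 (adjusted p = 0.13).

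Foxj1 stood apart from the other genes of ciliated cells in 67NR lungs. Of 11 other ciliated genes 3 were called higher, Dnah5 (1.26), Dynlrb2 (1.12) and Hydin (0.89), named here after their values were seen, and the median over the 11 was 0.19. The abundant ciliated genes Sec14l3 (0.19) and Tppp3 (0.01) did not pass the test. In the same comparison 7 of 9 alveolar macrophage genes were called lower, where 6.25% of all genes were (summed level 279 to 303 CPM, against 370 to 564 CPM in control lungs). Of 8 cardiac muscle genes, 4 were called higher, where 6.52% of all genes were, with 528 CPM summed in replicate 15 and 125 and 136 CPM in the other 67NR lungs. The part of these in the member results was not tested.

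In 4T1 lungs, only Lamp3 of the 10 genes differed from control lungs (-0.67 ± 0.17, SE, edgeR adjusted p = 0.019), where 11.8% of all genes were called. It measured 200, 194 and 295 CPM against 385, 343 and 384 CPM in control lungs. Sftpc, at 9152, 7939 and 10265 CPM, and Sftpa1, at 5846, 4899 and 6636 CPM, were also below every control lung, where 13.8% of all genes were, but did not pass the test (-0.43, adjusted p = 0.24, and -0.40, adjusted p = 0.28). Ager, Hopx, Scgb1a1 and Foxj1 were at 0.39, 0.10, 0.08 and 0.01 on the log2 scale, none past the test. In the same 4T1 lungs 13 of 13 neutrophil genes were called higher, where 7.45% of all genes were. Their summed levels were 11955 to 28524 CPM against 251 to 320 CPM in control lungs and 24740 to 29815 CPM in the 4T07 lungs. The spleen genes summed to 6.50 to 15.6 CPM in 4T1 lungs. Lamp3 no longer passed without replicate 37 (adjusted p = 0.10) or replicate 38 (adjusted p = 0.13) of the 4T1 lungs. Between 4T1 and 67NR lungs, Foxj1 alone was called (-2.11 ± 0.33, SE, edgeR adjusted p = 0.00021), where 12.0% of all genes were.

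Without the 3 libraries labelled 4T07 lung in the fit, 4 genes were called in 4T1 against control lungs: Lamp3 (-0.68, adjusted p = 0.0059), Sftpc (-0.43, adjusted p = 0.075), Sftpa1 (-0.41, adjusted p = 0.088) and Ager (0.39, adjusted p = 0.0997). In 67NR against control lungs Sftpb was added (0.48, adjusted p = 0.050) to Foxj1, Sftpa1 and Hopx. In 4T1 against 67NR lungs Hopx (-0.44, adjusted p = 0.044) and Abca3 (-0.37, adjusted p = 0.081) joined Foxj1. The fold changes were nearly the same with and without those libraries, and the standard errors were smaller without them. The shares of all genes called in the fit without them are not given here.

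Across the 12 lungs, the genes outside the list whose log2(CPM + 1) was most like that of a member were found among 12092 genes with a mean of at least 5 CPM. For Ager they were Gprc5a (Pearson r = 0.990), St8sia2 (0.989), Eva1b (0.987) and Gm14964 (0.987), and Gprc5a is also on the AT1 list. For Sftpb they were Cep170b (0.989), Scnn1b (0.988), Cckar (0.987) and Il17re (0.986). Scgb1a1 was followed by Erbb2, Gxylt2, Prkd1 and Glt28d2 at r = 0.963 to 0.970. For Foxj1 they were Araf, Zswim8, Slc16a11 and Foxj2 at r = 0.958 to 0.974, none of them on the ciliated list. These values describe 12 libraries that share the low 4T07 group, and carry no test.

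Outside the lung, the same genes were present as traces. For the 7 genes Sftpc, Sftpb, Sftpa1, Sftpd, Lamp3, Ager and Scgb1a1, each library's CPM was expressed as a percentage of the gene's mean over the 12 lungs. In the highest scaffold library, 67NR scaffold replicate 10, the 7 percentages were 1.47% for Sftpc, 1.24% for Sftpb, 1.71% for Sftpa1, 1.47% for Sftpd, 1.42% for Lamp3, 1.45% for Ager and 1.47% for Scgb1a1. In this library the 7 genes thus stood in nearly the proportions of the mean of the 12 lungs, which includes the low 4T07 lungs. Against the mean of the 67NR lungs alone, they ran from 0.845% for Sftpb to 1.70% for Sftpa1. In 67NR tumor replicate 20 the 7 ran from 0.902% to 1.48% of the 12-lung means, and in control scaffold replicate 1 from 0.622% to 1.57%. Libraries with lower traces could spread more widely, as in 4T07 scaffold replicate 24, from 0.0513% to 0.233%.

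Hopx and Abca3 did not follow. In 67NR scaffold replicate 10 Hopx was at 5.56% and Abca3 at 22.9% of their lung means. Over the 12 scaffolds Sftpc ranged 16.6-fold, from 7.61 to 127 CPM, and Scgb1a1 14.1-fold, from 13.0 to 184 CPM, while Hopx ranged 2.49-fold, from 22.9 to 57.1 CPM, and Abca3 2.22-fold, from 5.66 to 12.6 CPM. Foxj1 held at most 1 count in any scaffold or spleen library and was not tested there. In the tumors Foxj1 reached 3.24 CPM, in a 4T1 tumor where Sftpc was at 1.08 CPM.

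**Figure D5:**
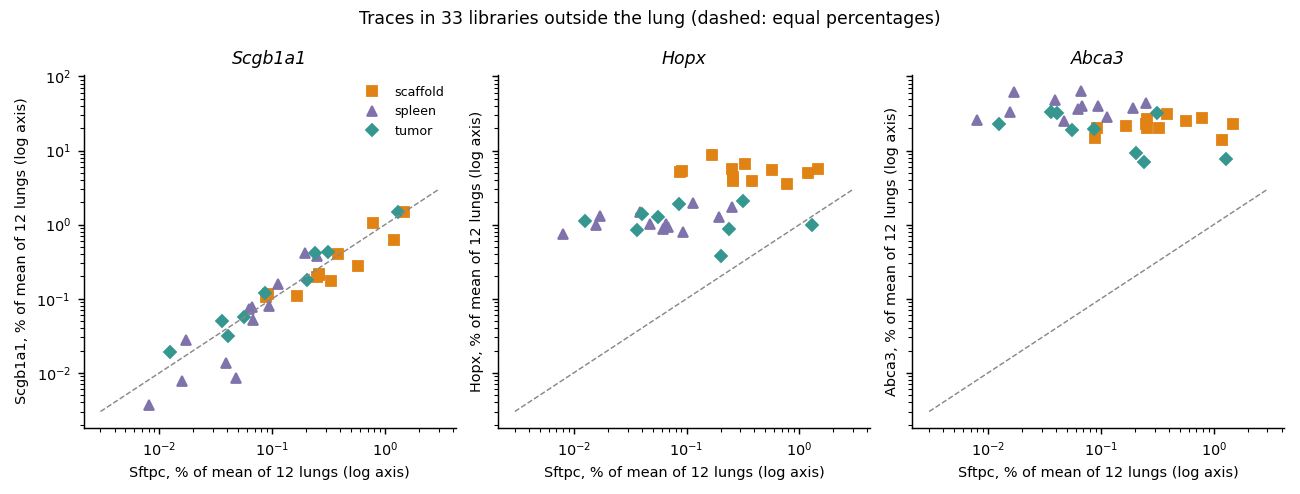
Scgb1a1, Hopx and Abca3 against Sftpc in 33 scaffold, spleen and tumor libraries, each as a percentage of the gene's mean over 12 lungs on log axes, with a dashed line at equal percentages. Scgb1a1 lies near the line in most libraries and below it in control spleens, Abca3 lies above it in all 33, and Hopx lies above it except in 67NR tumor replicate 20 (0.997%, with Sftpc at 1.29%).

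In the scaffolds no member was called in any of the 6 comparisons. The call rates over 22156 genes were 17.7% for 4T07 against control, 14.7% for 4T07 against 67NR, 2.14% for 4T1 against 4T07, 0.0226% for 4T1 against control and for 4T1 against 67NR, and 0% for 67NR against control. Each scaffold group held 1 library well above the others: for Sftpc, replicate 1 of control at 103 CPM, replicate 10 of 67NR at 127 CPM, replicate 22 of 4T07 at 67.6 CPM and replicate 34 of 4T1 at 33.0 CPM. Of 54 pairs of a member and a comparison, 2 had an unadjusted p under 0.05 with edgeR and 1 with DESeq2, which also called none at the adjusted threshold. Without 4T07 scaffold replicate 22, 2 members were called, Sftpa1 in 4T07 against control (-3.01, adjusted p = 0.063) and against 67NR (-3.15, adjusted p = 0.061) and Sftpc in 4T07 against 67NR (-2.28, adjusted p = 0.091).

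In the spleens the traces were lower but differed between groups. Scgb1a1 was the clearest: 12 counts in the 3 control spleens together, 0.850 CPM (95% exact Poisson interval 0.439 to 1.48), 8.52 CPM (7.01 to 10.2) in 67NR spleens, 42.3 CPM (39.0 to 45.8) in 4T07 spleens and 4.99 CPM (3.83 to 6.38) in 4T1 spleens. These intervals cover counting error only. By library, the 4T07 spleens at 20.0 to 51.4 CPM lay above all other spleens, which reached at most 10.1 CPM.

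In 4T07 against control spleens 7 of the 9 genes tested were called higher, where 16.0% of 21128 genes were. Scgb1a1 rose by 5.68 ± 0.55 on the log2 scale (SE, edgeR adjusted p = 2.7e-06), Sftpc by 3.13 ± 0.48, Sftpb by 3.08 ± 0.75, Sftpa1 by 2.75 ± 0.63 and Sftpd by 1.34 ± 0.44. Sftpb held 4 counts in all control spleens and 33 in all 4T07 spleens. Hopx (0.98 ± 0.25) and Abca3 (0.56 ± 0.21) were also called, and Ager (0.41) and Lamp3 (0.02) were not. Abca3 no longer passed without replicate 28 or 29 of the 4T07 spleens or replicate 8 or 9 of the controls (adjusted p = 0.15 to 0.19). In 67NR spleens Scgb1a1 was the member called higher (3.19 ± 0.61, edgeR adjusted p = 0.014), where 3.69% of all genes were. That value no longer passed without control replicate 8 (2.91, adjusted p = 0.12). Sftpd in 4T07 against control spleens no longer passed without 4T07 replicate 29 (adjusted p = 0.13) or control replicate 7 (adjusted p = 0.10). In 4T1 against control spleens 4 of the 9 were called, where 35.2% of all genes were: Scgb1a1 (2.77 ± 0.65, edgeR adjusted p = 0.0043), Abca3 (1.30 ± 0.21), Hopx (0.70 ± 0.25) and Lamp3. Lamp3 held 3 counts in all 4T1 spleens and 19 in all control spleens, a CPM ratio of 0.177 (95% exact interval 0.0335 to 0.600, counting error only). Hopx and Lamp3 no longer passed without some single libraries.

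The 4T07 spleens also exceeded 67NR spleens in 5 genes, where 13.1% of all genes were called higher, with Scgb1a1 (2.48 ± 0.41, edgeR adjusted p = 0.00052), Sftpc (1.59 ± 0.41) and Hopx (1.16 ± 0.25) passing without any 1 library, and Sftpb (1.72 ± 0.63) and Sftpd (1.24 ± 0.43) losing the call without some. In 4T1 against 4T07 spleens 5 were called, where 4.24% of all genes were. Scgb1a1 (-2.91 ± 0.44, edgeR adjusted p = 0.0022) was called without any 1 library, and Sftpc (-2.08 ± 0.45), Sftpa1 (-2.26 ± 0.63), Sftpd (-1.82 ± 0.49) and Abca3 (0.74 ± 0.21) were not. In 4T1 against 67NR spleens 3 were called, where 36.1% of all genes were: Abca3 (0.94 ± 0.21), Hopx (0.89 ± 0.26) and, not without some single libraries, Lamp3, whose CPM ratio was 0.149 (95% exact interval 0.0284 to 0.498). Sftpc by library measured 9.74 to 21.6 CPM in 4T07, 5.36 to 8.07 CPM in 67NR, 1.47 to 5.71 CPM in 4T1 and 0.692 to 4.10 CPM in control spleens, and only the 4T07 spleens lay above all the others. The comparisons of spleens share their groups.

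Ager and Lamp3 were at 0.174% to 0.546% and at up to 0.915% of their lung means in spleen, while Scgb1a1 was at 0.00369% to 0.411%, so these 2 genes had a level in spleen that did not follow Scgb1a1.

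In the tumors, tested at an adjusted p under 0.05, 6 of the 10 genes were lower in 4T1 than in 67NR tumors, where 14.8% of 20508 genes were called lower. These were Scgb1a1 (-4.58 ± 0.79), Sftpc (-4.48 ± 0.78), Sftpb (-4.15 ± 0.93), Sftpa1 (-4.12 ± 0.89), Sftpd (-3.84 ± 0.91) and Ager (-3.32 ± 0.70). Summed over the 4T1 tumors, Sftpb and Sftpd held 6 counts each and Ager 11 counts. Sftpc measured 111 CPM in 67NR tumor replicate 20, 17.5 and 20.6 CPM in the other 67NR tumors and 1.08 to 3.48 CPM in 4T1 tumors. Abca3 moved the other way (1.68 ± 0.32, edgeR adjusted p = 0.00078), where 16.7% of all genes were called higher. Without 67NR tumor replicate 20, Sftpd no longer passed (-2.36, adjusted p = 0.064). In 4T07 against 67NR tumors 6 were called, where 41.5% of all genes were. Sftpc (-2.19 ± 0.66), Sftpa1 (-2.27 ± 0.76), Scgb1a1 (-2.06 ± 0.67) and Ager (-2.48 ± 0.64) were lower, and without 67NR tumor replicate 20 none of these 4 passed (-0.75, -0.66, -0.79 and -1.48). Abca3 (1.31 ± 0.32) and Hopx (0.97 ± 0.36) were higher, and only Abca3 passed without any 1 library. In 4T1 against 4T07 tumors Scgb1a1 was called (-2.52 ± 0.79, edgeR adjusted p = 0.043), where 14.7% of all genes were, and no longer without 4T07 tumor replicate 31 (-1.35, adjusted p = 0.31) or any 1 of the 4T1 tumors (adjusted p = 0.082 to 0.13).

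The share of Scgb1a1 among Scgb1a1 and Sftpc counts compares the traces with lung of the same group. It was 71.7% in 4T07 spleens and 68.0% in the 4T07 lungs, 63.4% in 67NR tumors and 60.7% in 67NR lungs, 47.8% in control scaffolds and 53.0% in control lungs, all from counts summed over 3 libraries. In 67NR scaffolds it was 53.5%, with 59.2% in replicate 10 and 41.0% and 43.1% in the other replicates, below the 58.1% to 62.8% of the 67NR lungs. In 4T07 scaffolds it was 64.6% (53.2% to 66.3% by library) and in 4T07 tumors 65.8% (59.5% to 66.7%). In the 4T1 groups it was 58.7% in scaffolds, 58.3% in spleens, 62.1% in tumors and 61.3% in lungs, and in 67NR spleens 56.9%. By library the 4T1 shares spread more: 33.3% to 70.0% in spleens, from 108 counts in all, and 52.8% to 68.8% in tumors. They were 49.0% to 64.8% in 4T1 scaffolds and 54.3% to 66.5% in 4T1 lungs. In control spleens it was 29.3%, from 41 counts.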

How the data were processed

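Whole lung, scaffold, spleen and tumor RNA was measured by 3′ tag sequencing (Lexogen QuantSeq with unique molecular identifiers). The deposited table holds the authors' whole-number counts per gene symbol, made per the labels with Trim Galore 0.5.0, STAR 2.6.0 and featureCounts. The genome build, annotation, strand setting and treatment of molecular identifiers are not given in the sources used here. The 120 lines that repeat a symbol were summed. Library totals were 3491888 to 8175380 counts, so counting error is small for the abundant genes and larger for Foxj1.

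Groups came from the sample labels, with 3 libraries each. All groups of a tissue entered 1 fit, separate for each tissue, in edgeR 4.0.16 (R 4.3.3; TMM, quasi-likelihood F test, genes with over 10 counts in the tissue), with Benjamini-Hochberg adjustment over all genes tested. Calls used an adjusted p under 0.10, or under 0.05 in tumors, with and without a fold change over 2. The fit was tested on simulated data with a small set of genes raised and as many lowered by the same factor. That simulation held no shift of most genes, so it could not test the choice of scale. Ratios used an exact permutation test. The 6 ratios were called at an adjusted p under 0.05. Differences between tissues were tested as an interaction in a fit of both tissues, added after seeing the data.

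Alternatives were DESeq2 1.42.0, its size factors in edgeR, library totals, scaling to genes of the lung, other count filters, fits of 2 groups, and each library left out. Leaving out the 3 libraries labelled 4T07 lung, and choosing lung genes against 4T07 spleens too, were added after seeing the data. The members and lists were chosen with earlier results of these data known. All members are named, with the 2 most abundant genes of the other epithelial lists, genes of those lists that passed in the 4T07 comparisons, and the 4 genes most like Sftpb, Ager, Scgb1a1 and Foxj1 over the lungs. Promoters were taken from RefSeq (GRCm38.p6), which held 6 of the 10 members.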

Additional observations from a re-analysis of the deposited data

Results flagged for a closer look

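The effect of 4T07 against control differed between lung and spleen for 9 of the 10 genes, by the interaction term of an edgeR fit of both tissues. The share of all 24645 genes tested that differed in this way is not given here, so the count stands without it. Values are the log2 fold change in lung minus that in spleen, with its SE. The differences were Sftpc (-5.37 ± 0.51, adjusted p = 6.8e-09), Sftpb (-4.06 ± 0.73, adjusted p = 0.00012), Sftpa1 (-5.77 ± 0.59, adjusted p = 2.6e-08) and Sftpd (-2.84 ± 0.49, adjusted p = 7.2e-05) for the surfactant protein genes. They were Lamp3 (-2.38 ± 0.62, adjusted p = 0.0056), Abca3 (-1.73 ± 0.25, adjusted p = 7.2e-06), Ager (-1.99 ± 0.39, adjusted p = 0.00033), Hopx (-1.85 ± 0.32, adjusted p = 8.1e-05) and Scgb1a1 (-6.99 ± 0.67, adjusted p = 7.7e-09) for the other genes. Each is negative: the gene fell in the libraries labelled 4T07 lung and was higher, or changed less, in the 4T07 spleens. Foxj1 did not pass (adjusted p = 0.52).

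Between lung and scaffold the effect differed for Abca3 (-1.09 ± 0.29, adjusted p = 0.0086) and Hopx (-0.86 ± 0.33, adjusted p = 0.076), lung minus scaffold. The other 8 genes did not pass, and their spread among scaffold libraries was large. All these values rest on the 3 libraries labelled 4T07 lung, whose spleen genes summed to 138 to 211 CPM against 188 to 213 CPM in the 4T07 spleens, and the part of these in the differences was not tested. Groups of 3 were not searched for outlying samples.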

How the results depend on the processing

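The choice of scale had the largest effect. Scaled to 532 genes of the lung, and to the 456 of them that also passed against 4T07 spleens, members reversed with these log2 fold changes. In 4T07 against control they were Sftpb 0.85 and 0.85, Sftpd 0.33 and 0.34, Abca3 0.74 and 0.76, Ager 0.28 and 0.30, Hopx 0.93 and 0.93, Scgb1a1 0.46 and 0.45. In 4T07 against 67NR they were Sftpb 0.36 and 0.37, Sftpd 0.64 and 0.64, Abca3 0.52 and 0.54, Hopx 0.38 and 0.39, Scgb1a1 0.38 and 0.37. In 4T1 against 4T07 they were Sftpb -0.54 and -0.53, Sftpd -0.29 and -0.28, Abca3 -0.68 and -0.68, Hopx -0.63 and -0.62, Scgb1a1 -0.16 and -0.13. On these scales 8 and 6 members were called in 4T07 against control (9 otherwise), 3 and 2 in 4T07 against 67NR (10 otherwise), 5 and 5 in 4T1 against 4T07 (9 otherwise), 0 and 0 in 4T1 against control (1 otherwise), and 2 and 1 in 67NR against control (3 otherwise).

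With all genes as the scale, DESeq2, its size factors, library totals, both count filters, fits of 2 groups and leaving out each library gave 9 calls in 4T07 against control, 10 in 4T07 against 67NR and 9 in 4T1 against 4T07. The comparisons with fewer calls moved. The shares of all genes called under the alternative settings of this section are not given here, so these counts stand without them. For 67NR against control, 5 members were called with 2 groups fitted and 1 to 4 with a library left out. For 4T1 against control, 2 were called with no count filter, 3 with 2 groups fitted, 4 without the 3 libraries labelled 4T07 lung and 0 to 1 with a library left out. For 4T1 against 67NR, 2 were called with DESeq2, with no filter and with at least 10 counts in every library, 3 with library totals, 4 with 2 groups fitted, 3 without the libraries labelled 4T07 lung and 1 to 2 with a library left out. On the lung gene scale, leaving out a library gave 5 to 9 calls in 4T07 against control (8 otherwise), 0 to 4 in 4T07 against 67NR (3 otherwise), 3 to 5 in 4T1 against 4T07 (5 otherwise) and 1 to 2 in 67NR against control (2 otherwise).

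With no filter, 6 members were called in the scaffolds, where none were otherwise, with much smaller standard errors (0.20 rather than 0.73 for Sftpc in 4T07 against 67NR). The share of all scaffold genes called with no filter is not given here. Leaving out a scaffold library gave 0 to 2. With at least 10 counts in every library, 2 members each were called in spleen and tumor (8 otherwise), since fewer members were left to test. Without the libraries labelled 4T07 lung, the range of group means fell to 0.82 for log2 Lamp3/Sftpb, 0.49 for Hopx/Ager and was 2.10 for Foxj1/Scgb1a1, all with an adjusted p above 0.05. Leaving out a lung gave 0.79 to 1.18 for Hopx/Ager, which missed 0.05 without 4T1 replicate 38 (0.87, adjusted p = 0.053). A further 27 sign changes were of values that passed under neither setting. No paired analysis was possible because the labels share no replicate numbers between groups.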
